A study of Homo sapiens with 6 samples.

Results

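The antisense and divergent long non-coding RNAs (lncRNAs) of CCD18Co cells were followed after silencing of LTBP2. A row of the count table was taken when its type was lncRNA, its symbol ended in -AS, in -AS and a number, or in -DT, and its mean over the 6 libraries was at least 1 CPM (counts per 1e6, here the raw count over the library total). These values, and the change of 3 of the lncRNAs, were known when the group was drawn up. The rule found 310 lncRNAs of 60663 rows, 252 with an -AS name and 58 with a -DT name. They came out of 1837 lncRNA rows with such names, of which 594 had no read in any library. CCD18Co is an established line of normal human colon fibroblasts. The cells were transfected for 6 h by lipofection with siRNA against LTBP2 (siLTBP2) or with non-targeting siRNA (siNT), and RNA was taken 48 h after transfection, in 3 libraries for each group. No other treatment separated the groups, and both rest on this single line and on 1 siRNA reagent against LTBP2. The comparison asks which of these lncRNAs changed when LTBP2, a secreted protein that binds to the microfibrils of the extracellular matrix, was silenced, and whether the coding gene named beside each of them changed as well.

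An -AS symbol is given to a lncRNA transcribed from the opposite strand of a coding gene, across its body or across its start. A -DT symbol marks a divergent transcript, which starts close to the coding gene's own start site and runs away from it. Many mammalian promoters open chromatin in both directions and give such RNAs, and the partners then share a stretch of promoter DNA. Some antisense RNAs are known to act on the gene beside them, while for most no function has been established. They are usually less abundant than mRNAs and many are kept in the nucleus, so a total RNA library that removes ribosomal RNA and retains strand is suited to count them.

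Of the 310 lncRNAs, 300 carried the name of a gene present as a protein-coding row, which is called the coding neighbour here. For the other 10 no protein-coding row bore the name. Among them were 4 RNAs of the HOX clusters (HOXA-AS2, HOXB-AS1, HOXB-AS3 and HOXD-AS2), GAS5-AS1 and the pair PGM5P3-AS1 and PGM5P4-AS1. There were 294 different coding neighbours, since 6 of them (GAS6, PTOV1, SP2, MRPL20, PAXIP1 and DLGAP1) had 2 lncRNAs each. All positions below are from GENCODE release 44 on GRCh38, which held 309 of the 310 identifiers. By these positions the exons of lncRNA and neighbour overlapped on opposite strands in 204 pairs. In 29 pairs the gene bodies overlapped without shared exon bases. In 65 pairs the genes lay head to head with no overlap, and 40 of these 65 were -DT names. LYRM4-AS1 was the single pair lying tail to tail. The closest annotated starts of lncRNA and neighbour were within 1 kb in 218 of 299 pairs (72.9%), with a median distance of 145 bases. The share was 96.6% for -DT names (median 106 bases) and 67.2% for -AS names (median 214 bases), so many -AS names also started near a start of their neighbour. This distance takes no account of direction, so it does not show that a start was bidirectional.

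The DNA between the start sites of a head-to-head pair belongs to neither transcript. Its median length in the 65 pairs was 103 bases (8 to 4509), with a median GC content of 71.9% and a median CpG observed over expected ratio of 0.93. The 4 intervals whose lncRNA and neighbour both passed an adjusted p of 0.05 in the main fit are printed first. Then come 4 in which only the lncRNA passed in that fit, to set the shared DNA beside the values that follow. These 8 were chosen after their values were seen. Each runs 5′ to 3′ along the strand of the lncRNA, from hg38, and capitals mark a CCAAT box (CCAAT) or a GC box (GGGCGG) on either strand. The intervals lie at chr4:52659302-52659405 (plus strand, USP46-DT), chr13:113864077-113864111 (plus, GAS6-DT), chr1:94927224-94927360 (plus, CNN3-DT), chr3:129893712-129893810 (plus, TMCC1-DT), chr17:81034882-81035121 (minus, BAIAP2-DT), chr13:100088973-100089014 (minus, PCCA-DT), chr2:74147913-74148006 (plus, BOLA3-AS1) and chr6:75284949-75284991 (plus, TMEM30A-DT).
USP46-DT: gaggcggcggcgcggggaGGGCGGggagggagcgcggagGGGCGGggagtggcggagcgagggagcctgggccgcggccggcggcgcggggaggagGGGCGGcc
GAS6-DT: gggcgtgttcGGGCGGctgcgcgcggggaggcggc
CNN3-DT: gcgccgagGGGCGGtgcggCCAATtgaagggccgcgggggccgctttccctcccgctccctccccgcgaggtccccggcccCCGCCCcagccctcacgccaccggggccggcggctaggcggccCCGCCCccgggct
TMCC1-DT: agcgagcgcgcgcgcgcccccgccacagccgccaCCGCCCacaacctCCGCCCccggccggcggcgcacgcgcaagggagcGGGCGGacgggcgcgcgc
BAIAP2-DT: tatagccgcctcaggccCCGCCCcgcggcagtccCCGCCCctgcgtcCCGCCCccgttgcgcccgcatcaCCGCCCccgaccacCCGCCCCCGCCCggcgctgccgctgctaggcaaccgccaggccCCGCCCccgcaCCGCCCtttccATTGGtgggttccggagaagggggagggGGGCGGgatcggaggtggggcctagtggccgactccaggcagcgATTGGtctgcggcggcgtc
PCCA-DT: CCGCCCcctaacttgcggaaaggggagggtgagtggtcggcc
BOLA3-AS1: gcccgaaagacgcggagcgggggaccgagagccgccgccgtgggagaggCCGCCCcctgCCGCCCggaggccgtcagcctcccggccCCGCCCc
TMEM30A-DT: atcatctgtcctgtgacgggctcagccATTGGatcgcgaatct
The USP46-DT interval had a GC content of 87.5% and held 3 GC boxes, and the BAIAP2-DT interval held 11 matches with both motifs. TMEM30A-DT had the lowest GC content of the 8, at 53.5%, and a single inverted CCAAT box. For all pairs with starts within 1 kb, the 300 bases centred between the starts held a GC box in 70.2% of 218 windows and a CCAAT box in 26.1%. In the same window between the starts of 1327 divergent pairs of 2 coding genes these shares were 72.4% and 35.5%, and around the starts of all 12484 coding genes tested they were 64.7% and 33.7%. The -DT windows held the CCAAT box in 35.7% and the -AS windows in 22.8%. The motif TATAAA was present in 1.83% of the lncRNA windows against 5.8% of all coding starts, CCGGAAG (the core of many ETS sites) in 15.6% against 16.3%, and GCATGCGC (an NRF1 motif) in 6.42% against 4.82%. A match describes the letters only.

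Library totals were 44663424 to 53576899 counts, and 16920 genes, all 310 lncRNAs among them, had enough counts to be tested. LTBP2 itself had 25, 23.1 and 21.2 CPM in siNT and 6.49, 8.61 and 6.00 CPM in siLTBP2, a log2 fold change of −1.72 ± 0.15 (SE, adjusted p = 6.6e-05, edgeR). Unless raw CPM is stated, CPM values are scaled with TMM (trimmed mean of M values) factors, and n = 3 libraries per group throughout. The 10 fibroblast markers examined were all above 1 CPM, and their sum was 13042 to 17392 CPM in siNT and 12843 to 18375 CPM in siLTBP2. Of 7 epithelial markers only KRT8 and KRT18 reached 1 CPM, EPCAM, CDH1, KRT19, KRT20 and VIL1 were below it and 1 of these was at 0, and the sum was 40.2 to 52.6 CPM in siNT and 85.6 to 99.3 in siLTBP2. None of 4 leukocyte markers reached 1 CPM. Of 4 endothelial markers 1 did, with sums of 1.48 to 2.03 in siNT and 0.80 to 1.37 in siLTBP2. Of 4 muscle markers DES, MYH11 and CNN1 were below 1 CPM, and the sum was 39.9 to 41.9 in siNT and 53.2 to 71.9 in siLTBP2. The part of the epithelial and muscle markers in the results below was not tested.

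As a group the lncRNAs were centred on no change after silencing of LTBP2. Their median log2 fold change was −0.01, the same as over all genes tested (−0.01), and the middle 50% lay between −0.26 and 0.27. Genes were called deregulated with more than a 2-fold change at an adjusted p below 0.01. By this call 13 lncRNAs were deregulated (4.19%), 6 higher and 7 lower in siLTBP2. This compares with 2.57% of all genes tested, 1.29% higher and 1.27% lower. At an adjusted p below 0.05 with any fold change, 46 lncRNAs changed (14.8%), 23 in each direction, beside 19.3% of all genes (9.76% higher, 9.51% lower). The libraries of the groups did not overlap for 111 lncRNAs (35.8%, 54 higher and 57 lower), beside 37% of all genes. Among 688 other lncRNAs with a mean of at least 1 CPM, 3.63% were deregulated and 16.6% passed the looser call. The -DT names had 1 deregulated member of 58 and 12 at the looser call (5 higher, 7 lower), and the -AS names 12 of 252 and 34 (18 higher, 16 lower). Since the mean over both groups chose the lncRNAs, 28 of them reached 1 raw CPM in one group only, 12 in siLTBP2 and 16 in siNT, and a change in these is in part fixed by the choice. Among the 28 were STXBP5-AS1, DPP4-DT, RHOXF1-AS1, LIF-AS2 and PIK3CD-AS2, which enter the 4.19% of deregulated lncRNAs. HIF1A-AS3, ADAMTS19-AS1 and TMEM30A-DT, named below, were also of this kind. For all of these the adjusted p-values below are descriptions and no independent evidence of change. The raw means just inside the limit were 1.00 (ELOA-AS1), 1.01 (LIF-AS2) and 1.01 (RHOXF1-AS1), with log2 fold changes of −0.13, −1.22 and −2.55. Just outside were ATP2A1-AS1, PRKAR2A-AS1 and WDR5B-DT, at 0.9996, 0.9988 and 0.9977, with −0.82, 0.15 and 0.11.

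The 3 lncRNAs with the greatest fold changes, STXBP5-AS1, DPP4-DT and RHOXF1-AS1, were singled out by that change, so their values are a description without a test. STXBP5-AS1 runs over chr6:146824539-147204614 on the minus strand. Its start lies 7 bases from a start of STXBP5, which encodes tomosyn, a syntaxin-binding protein that restrains vesicle fusion. STXBP5-AS1 was at 0.757, 0.689 and 0.742 CPM in siNT and at 4.5, 4.86 and 5.01 CPM in siLTBP2, from raw counts of 34 to 40 and of 196 to 264. The libraries of each group were close together and far from those of the other, with a log2 fold change of 2.71 ± 0.18 (SE). STXBP5 had 59.6, 48.7 and 57.2 CPM in siNT and 86.8, 75.4 and 95.2 CPM in siLTBP2, a rise of 0.64 ± 0.11 on the log2 scale (adjusted p = 0.00279). The log2 ratio of lncRNA to coding gene in single libraries went from between −6.22 and −6.06 in siNT to between −4.26 and −3.94 in siLTBP2, a mean difference of 2.01. The groups did not overlap in this ratio, but with 3 libraries against 3 the exact two-sided permutation p cannot go below 0.1, here and for every ratio below. Most pairs with a ratio below were named by a call of the lncRNA or its neighbour, so its separation is in part fixed by that choice. The share of all pairs with such a separation is not given here. For single genes it was 37% of all genes tested.

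DPP4-DT runs over chr2:162073256-162078036 on the plus strand, and its start is 59 bases from that of DPP4, which encodes a dipeptidyl peptidase of the cell surface (CD26). DPP4-DT was at 3.89, 4.36 and 4.10 CPM in siNT and fell to 0.849, 0.740 and 0.797 CPM in siLTBP2, from 180 to 221 raw counts to 35 to 42. The fold change was −2.37 ± 0.18 on the log2 scale. DPP4 fell with it, from 159, 169 and 130 CPM to 59.8, 63.4 and 47.0 CPM (log2 fold change −1.43 ± 0.13, adjusted p = 8.5e-05). The lncRNA fell further than the gene, with the log2 ratio lower by 0.89 on average and no overlap between groups. DPP4-DT is the single -DT name among the deregulated lncRNAs.

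RHOXF1-AS1 runs over chrX:120036236-120146855 on the plus strand, and a start of RHOXF1, a homeobox gene of reproductive tissues, is 850 bases away. RHOXF1-AS1 was at 2.29, 1.30 and 1.59 CPM in siNT and at 0.344, 0.233 and 0.304 CPM in siLTBP2, on only 11 to 16 raw counts in each siLTBP2 library. Its log2 fold change was −2.55 ± 0.30. RHOXF1 had no read in any of the 6 libraries, so in these cells the antisense RNA was measured without its coding neighbour.

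The other deregulated lncRNAs fall into those that moved with their neighbour and those that did not. TRHDE-AS1, which starts 13 bases from TRHDE (a membrane peptidase that degrades thyrotropin-releasing hormone), was the most abundant of the 13. It had 15.5, 17.6 and 18.7 CPM in siNT and 40.5, 31.8 and 46.1 CPM in siLTBP2 (log2 fold change 1.19 ± 0.14, adjusted p = 0.000297). TRHDE rose as well, from 80.5 ± 9.40 to 162 ± 10.2 CPM (SD), with a log2 fold change of 1.01 ± 0.10 (adjusted p = 0.00014). NAV2-AS6 lies in the body of NAV2, a gene of the cytoskeleton and cell migration, and went from 2.25, 2.05 and 2.67 to 4.47, 4.25 and 6.39 CPM (1.12 ± 0.20, adjusted p = 0.00356). NAV2 rose by 1.00 ± 0.09 (adjusted p = 9.67e-05), and the log2 ratio of the partners overlapped between groups in both of these pairs.

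SPRY4-AS1 rose from 1.25, 1.52 and 1.21 to 2.32, 3.30 and 2.75 CPM (1.07 ± 0.21, adjusted p = 0.00503). SPRY4, an inhibitor of receptor tyrosine kinase signalling, rose by 0.76 ± 0.13 (adjusted p = 0.0027), below the 2-fold limit. LIF-AS2 fell from 1.82, 1.03 and 1.39 to 0.619, 0.592 and 0.607 CPM (−1.22 ± 0.26, adjusted p = 0.00917). LIF, a cytokine of the interleukin-6 family, fell from 177 ± 9.86 to 65.6 ± 8.97 CPM (−1.43 ± 0.11, adjusted p = 3.55e-05). The ratio of antisense to coding RNA overlapped between groups for both pairs.

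LYRM4-AS1, SGMS1-AS1 and PIK3CD-AS2 were deregulated without a call for the neighbour in the main fit. Of these neighbours PIK3CD had an adjusted p below 0.05 in some alternative fit. LYRM4-AS1, whose start is 79158 bases from that of LYRM4, a gene of iron-sulfur cluster assembly, rose from 7.24, 7.88 and 6.10 to 18.1, 15.4 and 14.8 CPM (1.18 ± 0.14, adjusted p = 0.000279). LYRM4 was at 19.0 ± 1.57 and 18.4 ± 1.25 CPM, a log2 fold change of −0.05 ± 0.11 (adjusted p = 0.81). SGMS1-AS1 starts 23 bases from SGMS1, which makes sphingomyelin in the Golgi apparatus. It rose from 3.55, 3.18 and 2.15 to 7.34, 6.70 and 4.97 CPM (1.10 ± 0.22, adjusted p = 0.00561), while SGMS1 had a log2 fold change of 0.21 ± 0.12 (adjusted p = 0.259). PIK3CD-AS2 fell from 1.58, 1.42 and 1.35 to 0.803, 0.677 and 0.569 CPM (−1.09 ± 0.23, adjusted p = 0.00786), and PIK3CD, a catalytic subunit of phosphoinositide 3-kinase, had 0.41 ± 0.16 (adjusted p = 0.0938). The log2 ratio did not overlap between groups for LYRM4-AS1 (a difference of 1.23) and PIK3CD-AS2 (−1.45), and it overlapped for SGMS1-AS1.

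Of the 10 lncRNAs with no coding row of their name, 3 were deregulated, all of them lower. This was 30%, beside 2.57% of all genes tested (1.27% lower), but 2 of the 3 are near copies of each other, as described below. C5orf66-AS1 (named EPIST in GENCODE 44) fell from 15.5, 18.3 and 15.2 to 6.75, 7.85 and 6.11 CPM (−1.24 ± 0.13, adjusted p = 0.000218). PGM5P3-AS1, on chromosome 9, went from 23.4, 27.7 and 14.4 to 7.64, 7.49 and 3.64 CPM (−1.81 ± 0.29, adjusted p = 0.00182). PGM5P4-AS1, on chromosome 2, went from 4.26, 3.89 and 2.52 to 1.45, 1.29 and 0.626 CPM (−1.67 ± 0.31, adjusted p = 0.00394). Replicate 3 was the lowest library of its group for both of these RNAs. They share much of their sequence, with 74.6% of the 31-base words of PGM5P4-AS1 also in PGM5P3-AS1 (40.1% of the words of the latter), so the share of reads given to each is uncertain and they cannot be counted as independent changes. Without this pair the group held 11 deregulated lncRNAs, 6 higher and 5 lower.

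**Figure D1:**
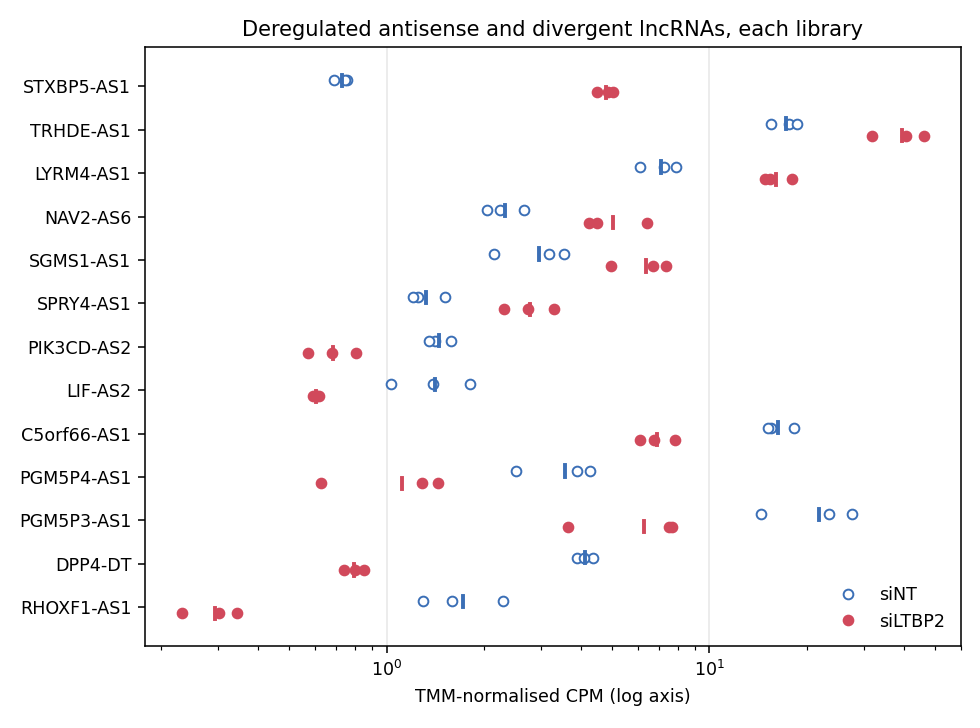
TMM-normalised CPM on a log axis of the 13 deregulated lncRNAs, 1 row per lncRNA and 1 point per library (open, siNT; filled, siLTBP2; 3 libraries each). In every row the 3 siLTBP2 points lie on one side of the 3 siNT points, and STXBP5-AS1, DPP4-DT and RHOXF1-AS1 show the widest gaps.

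Not every one of these calls rested on all 6 libraries alike. With any single library left out, STXBP5-AS1, DPP4-DT, RHOXF1-AS1, C5orf66-AS1, LYRM4-AS1 and TRHDE-AS1 stayed deregulated, and the total was 7 to 11 in place of 13. PIK3CD-AS2 lost the call without any one of the libraries. LIF-AS2 lost it without siNT 1, siNT 3 or any siLTBP2 library, SPRY4-AS1 without any siNT library or siLTBP2 2, and SGMS1-AS1 without siNT 2, siNT 3, siLTBP2 1 or siLTBP2 2. NAV2-AS6 lost it without siNT 1, siNT 2 or siLTBP2 3, PGM5P4-AS1 without siNT 1, siNT 2 or siLTBP2 2, and PGM5P3-AS1 without siNT 2.

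The lncRNAs with the next smallest adjusted p were below the 2-fold limit or just above the p limit. USP46-DT starts 105 bases from USP46, a deubiquitinase, across the first interval printed above. It fell from 6.94, 7.45 and 6.49 to 3.76, 4.02 and 3.42 CPM (−0.90 ± 0.14, adjusted p = 0.00171). USP46 fell from 198, 181 and 177 to 92.9, 95.2 and 101 CPM (−0.94 ± 0.08, adjusted p = 7.63e-05), so both partners of this promoter changed by nearly the same factor, and their ratio overlapped between groups. TBX2-AS1 (−0.91 ± 0.16, adjusted p = 0.00293) fell with TBX2, a T-box transcription factor (−0.53 ± 0.13, adjusted p = 0.0163), whose call was lost without siNT 3, siLTBP2 1 or siLTBP2 2.

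In most others of this set the neighbour did not pass in the main fit. BAIAP2, PCCA, PPM1F and FAM111A had an adjusted p below 0.05 in some alternative fit. BOLA3, KIF9 and ODC1 had none in any. BAIAP2-DT fell from 21.9, 18.9 and 19.8 to 12.6, 14 and 9.83 CPM (−0.74 ± 0.14, adjusted p = 0.00442), and BAIAP2, a regulator of the actin cytoskeleton, had −0.31 ± 0.12 (adjusted p = 0.103). PCCA-DT fell from 5.12, 5.63 and 5.69 to 3.65, 3.30 and 3.34 CPM (−0.68 ± 0.14, adjusted p = 0.00798), with PCCA, a mitochondrial carboxylase subunit, at −0.33 ± 0.12 (adjusted p = 0.0698). BOLA3-AS1 fell from 3.74, 3.44 and 4.23 to 2.29, 2.33 and 1.82 CPM (−0.83 ± 0.18, adjusted p = 0.00895), with BOLA3, a gene of iron-sulfur cluster assembly, at −0.11 ± 0.09 (adjusted p = 0.443). No library of one group reached the other in either lncRNA. KIF9-AS1 fell by 0.73 (adjusted p = 0.0048) and PPM1F-AS1 by 0.95 (adjusted p = 0.00912). FAM111A-DT rose by 0.73 (adjusted p = 0.00495) and ODC1-DT by 0.90 (adjusted p = 0.00562). ODC1, the first enzyme of polyamine synthesis, was at 191 ± 19.1 and 212 ± 18.4 CPM (0.15 ± 0.10, adjusted p = 0.344), while ODC1-DT went from 1.51, 1.64 and 1.47 to 3.14, 2.66 and 2.83 CPM. The log2 ratio of ODC1-DT to ODC1 was higher by 0.73 without overlap of the groups.

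In the main fit HIF1A-AS3 and HIF1A were the one pair at an adjusted p below 0.05 in opposite directions. HIF1A lost that call without any one of the 6 libraries (highest adjusted p 0.0928). SBF2-AS1 and SBF2, given below, also passed in opposite directions under the likelihood ratio test, and PIK3CD-AS2 and PIK3CD did so in some alternative fit. HIF1A-AS3 fell from 1.54, 1.52 and 1.45 to 0.459, 0.592 and 0.911 CPM (−1.18 ± 0.27, adjusted p = 0.0113). HIF1A, the oxygen-regulated subunit of hypoxia-inducible factor, rose from 298, 284 and 314 to 359, 358 and 395 CPM (0.31 ± 0.09, adjusted p = 0.0315). The log2 ratio fell by 1.51 on average, without overlap. Per kilobase of exon the antisense RNA stood at a ratio of 0.0033 to HIF1A.

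The coding neighbours had fewer deregulated genes than the lncRNAs and more at the looser call. Of 272 neighbours tested, 7 were deregulated (2.57%, 4 higher and 3 lower), beside 2.85% of all 12496 coding genes tested. At an adjusted p below 0.05, 69 neighbours changed (25.4%, 39 higher and 30 lower), beside 23.4% of coding genes. The median SE of a log2 fold change was 0.19 for the lncRNAs and 0.11 for their neighbours, and the part of this precision in the counts of calls was not tested.

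Of the 277 pairs with both partners tested, 7 had both higher at an adjusted p below 0.05 and 8 had both lower. Taken singly, 14.8% of the lncRNAs and 25.4% of the neighbours passed this call, beside 19.3% of all genes tested. The share of joint calls in other pairs of genes was not computed, so the joint counts here are descriptions only. The pairs with both higher were those of STXBP5-AS1, TRHDE-AS1, NAV2-AS6, SPRY4-AS1, ITGB1-DT, PINK1-AS and GAS6-DT. The pairs with both lower were those of DPP4-DT, LIF-AS2, ADAMTS19-AS1, TBX2-AS1, USP46-DT, MUC12-AS1, TMCC1-DT and CNN3-DT. TMCC1-DT fell from 2.64 ± 0.55 to 1.61 ± 0.12 CPM (−0.71 ± 0.21, adjusted p = 0.0368) beside TMCC1 at −0.35 (adjusted p = 0.0406), and CNN3-DT from 5.83 ± 0.45 to 4.21 ± 0.35 CPM (−0.47 ± 0.14, adjusted p = 0.0437) beside CNN3, a calponin, at −0.29 (adjusted p = 0.0482). PINK1-AS rose from 17.2 ± 1.74 to 23.9 ± 1.24 CPM (0.48 ± 0.11, adjusted p = 0.0115), beside PINK1, a kinase of mitochondrial quality control, at 0.42 (adjusted p = 0.00519). TMEM30A-DT moved alone, from 0.702 ± 0.17 to 1.49 ± 0.20 CPM (1.08 ± 0.25, adjusted p = 0.012), with TMEM30A, a subunit of lipid flippases, at 0.04 (adjusted p = 0.799). In 14 pairs the lncRNA alone was higher, in 10 it alone was lower, in 32 the coding gene alone was higher and in 22 it alone was lower. In 183 pairs neither passed. At the deregulated level both partners passed in 4 pairs, those of TRHDE and NAV2 (higher) and of DPP4 and LIF (lower). TRHDE and NAV2 stood at the 2-fold limit and lost this call under total counts and with no low-count filter. TRHDE also lost it without siNT 1, siNT 2 or siLTBP2 3, and NAV2 under upper-quartile factors, with the replicate block and without siNT 2, siLTBP2 1 or siLTBP2 3.

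GAS6 had 2 lncRNAs with different values. GAS6, a ligand of the TYRO3, AXL and MERTK receptors, rose from 365 ± 17.6 to 585 ± 38.1 CPM (0.68 ± 0.09, adjusted p = 0.000727). GAS6-DT, which lies head to head with it at 36 bases, rose from 12.1, 10.2 and 10.1 to 15.1, 15.6 and 14.3 CPM (0.48 ± 0.12, adjusted p = 0.0166). GAS6-AS1, which overlaps exons of GAS6, had 4.61 ± 1.37 and 2.54 ± 1.35 CPM (−0.87 ± 0.37, adjusted p = 0.133), and its groups overlapped. It was named after its values were seen.

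In 3 pairs the coding gene was deregulated and the lncRNA was not. HAS2, a hyaluronan synthase, rose from 9.0, 7.31 and 8.46 to 23.7, 26.7 and 37.8 CPM (1.83 ± 0.17, adjusted p = 9.91e-05). HAS2-AS1, whose start is 4 bases from a start of HAS2, had 1.04, 1.15 and 1.21 CPM in siNT and 1.31, 1.12 and 1.14 in siLTBP2 (0.07 ± 0.21, adjusted p = 0.865). Its ratio to HAS2 fell by 1.74 on the log2 scale, without overlap of the groups. TMCO1, a calcium channel of the endoplasmic reticulum, rose from 41.8, 56.3 and 44.9 to 105, 111 and 121 CPM (1.24 ± 0.12, adjusted p = 9.95e-05). TMCO1-AS1, which starts 7 bases away, had 1.31 ± 0.15 and 1.20 ± 0.43 CPM (−0.13 ± 0.27, adjusted p = 0.783), and the log2 ratio fell by 1.42 without overlap. MUC12, a mucin of the cell membrane, was at 2.39 ± 0.24 and 0.991 ± 0.14 CPM (−1.27 ± 0.20, adjusted p = 0.00185), and MUC12-AS1 fell from 3.07 ± 0.47 to 1.77 ± 0.53 CPM (−0.80 ± 0.24, adjusted p = 0.0398). MUC12 lost the deregulated call without siLTBP2 2, and MUC12-AS1 its call under upper-quartile factors and without siNT 1, siNT 2, siLTBP2 2 or siLTBP2 3.

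**Figure D2:**
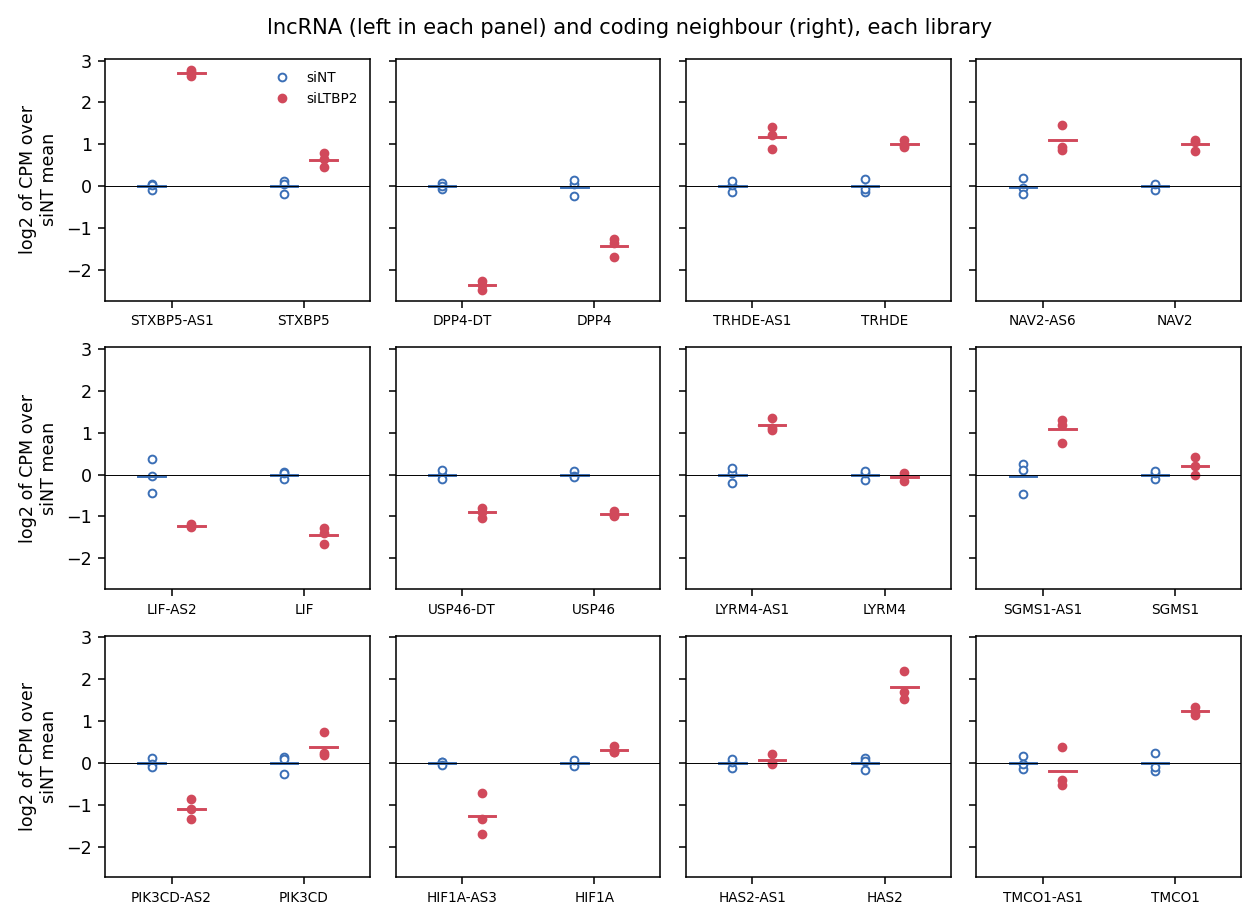
log2 of CPM over the siNT mean in 12 pairs, the lncRNA on the left and the coding neighbour on the right of each panel, 1 point per library (open, siNT; filled, siLTBP2). Both partners are shifted for TRHDE, NAV2, LIF, USP46 and DPP4, the lncRNA is shifted further for STXBP5, and the coding gene alone is shifted for HAS2 and TMCO1.

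Over the 277 pairs the log2 fold changes of lncRNA and neighbour correlated with Pearson's r = 0.41 and Spearman's rho = 0.35, and 162 pairs (58.5%) had the same sign. All pairs share the same 6 libraries and are not replicates, so these are descriptions without a test. The 58 -DT pairs had r = 0.67 and rho = 0.53, with 38 of the same sign (65.5%), and r was 0.54 over 57 pairs without DPP4-DT. The 219 -AS pairs had r = 0.34 and rho = 0.29. Pairs with starts within 1 kb had r = 0.48 (214 pairs), and those with starts further apart had r = 0.08 (62 pairs). Head-to-head pairs, which share no transcribed base, had r = 0.53 with 44 of 65 of the same sign (67.7%). For 1327 pairs of 2 coding genes with divergent starts within 1 kb, r was 0.20 and rho 0.21, with 55.8% of the same sign. Without STXBP5-AS1 and DPP4-DT, r over the other 275 pairs was 0.37. RHOXF1-AS1 was in none of the pairs, since RHOXF1 was not tested. In 13 pairs the partners' log2 fold changes lay more than 1 apart, and the median gap was 0.26.

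**Figure D3:**
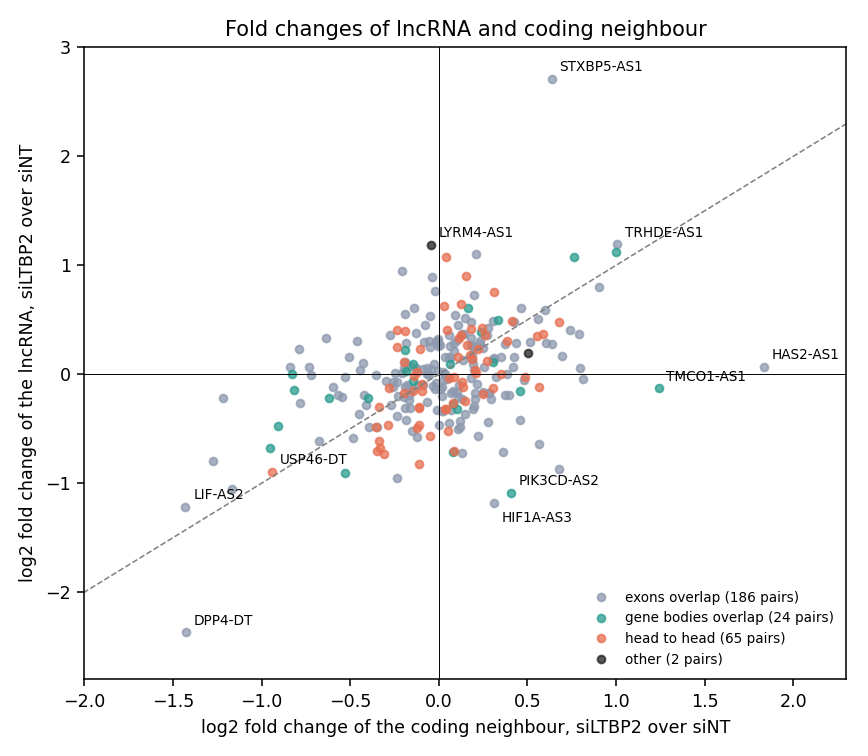
log2 fold change (siLTBP2 over siNT) of each lncRNA against that of its coding neighbour, 1 point per pair (277), coloured by their positions, with the dashed line at equal change. Most points lie near the origin; LIF-AS2, USP46-DT and TRHDE-AS1 lie near the line, DPP4-DT below it and STXBP5-AS1 far above it, and HAS2-AS1 and TMCO1-AS1 near the horizontal axis.

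In level, most of these RNAs were minor partners. The median lncRNA had 2.82 CPM (1.00 to 145), and 45 were above 10 CPM. Per kilobase of annotated exon, the median ratio of lncRNA to neighbour was 0.12 over 297 pairs, with the middle 50% between 0.04 and 0.41. In 51 pairs the lncRNA stood above its neighbour, and in 30 it was below 1% of it. Only 3 of the 51 were -DT names, whose median ratio was 0.086.

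The most abundant was MAGI2-AS3, with 129, 143 and 149 CPM in siNT and 145, 141 and 165 in siLTBP2 (0.11 ± 0.09, adjusted p = 0.487). It stood 7.12 times above MAGI2, a scaffold protein of cell junctions, per kilobase. MAGI2 itself fell from 47.6, 46.7 and 40.2 to 34.7, 31.8 and 33.5 CPM (−0.43 ± 0.10, adjusted p = 0.0108), a call lost without siLTBP2 2. FGD5-AS1 had 124 ± 8.74 and 131 ± 12.1 CPM, while FGD5, a gene of endothelial cells, was at 0 in 5 of the 6 libraries. OIP5-AS1, a conserved and widely expressed lncRNA also called cyrano, had 111 ± 5.91 and 125 ± 15 CPM (0.17 ± 0.10, adjusted p = 0.274), and OIP5, a centromere gene, rose from 4.55 ± 0.89 to 7.38 ± 1.43 CPM (adjusted p = 0.0266), a call lost without siNT 1, siLTBP2 2 or siLTBP2 3.

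SBF2-AS1 was the one of the 10 most abundant that came near the threshold. It had 76.1, 93.3 and 50.5 CPM in siNT and 52.6, 51.5 and 30.2 CPM in siLTBP2, with overlapping groups (−0.71 ± 0.23, adjusted p = 0.0568). This lncRNA passed 0.05 under the likelihood ratio test (adjusted p = 0.0178), no low-count filter (1.8e-09), the replicate block and without siNT 3 or siLTBP2 1, and not under the others (up to 0.23). SBF2 rose by 0.36 ± 0.08 (adjusted p = 0.0103), a call lost without siNT 1 or siLTBP2 2. CTBP1-DT had 30.6 ± 2.56 and 32.2 ± 2.72 CPM (0.07 ± 0.10, adjusted p = 0.688), although CTBP1, a transcriptional corepressor with a start 11 bases away, fell from 201 ± 12.9 to 121 ± 11.6 CPM (−0.73 ± 0.10, adjusted p = 0.000565). NUTM2A-AS1, PAX8-AS1, SLC9A3-AS1, NR2F1-AS1 and GARS1-DT had log2 fold changes between −0.35 and 0.29 and none passed an adjusted p of 0.05.

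**Figure D4:**
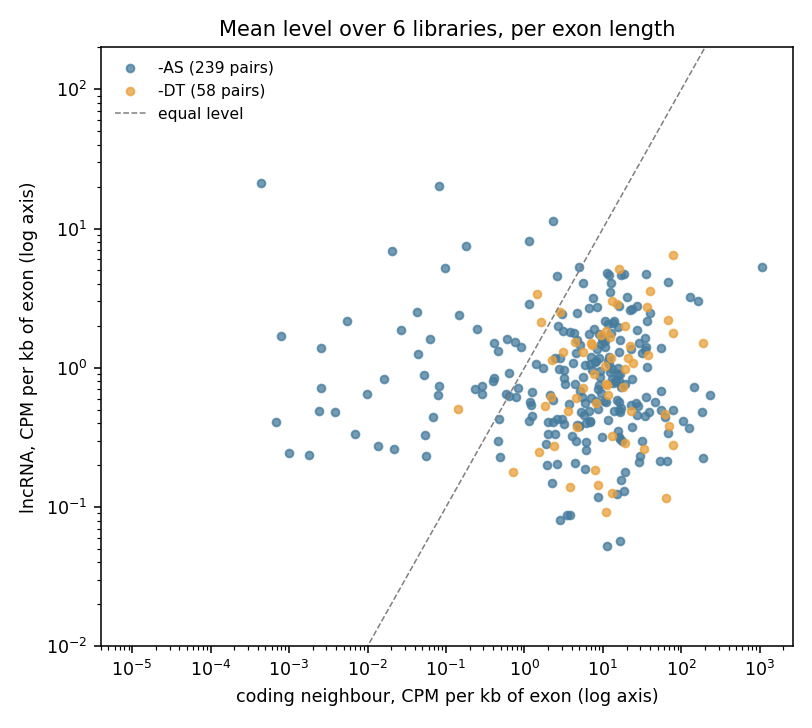
Mean level over the 6 libraries of each lncRNA against its coding neighbour, both in TMM-normalised CPM per kilobase of exon on log axes, 1 point per pair, with the dashed line at equal level. Most points lie below the line, and 51 of 297 lie above it, FGD5-AS1 and MAGI2-AS3 among the most abundant of them.

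The lncRNAs were also grouped by the gene in their name, with lists of symbol patterns drawn up when earlier results were known. A pattern can take in genes outside the heading of its list. The 22 in the list for developmental transcription factors stood at a median of 0.05 on the log2 scale. Of them 4 fell at an adjusted p below 0.05 (TBX2-AS1, SP2-AS1, FOXD2-AS1 and HIF1A-AS3) and none rose. This was 18.2%, beside 19.3% of all genes tested. SP2 and HIF1A are not factors of development in particular. FOXD2-AS1 fell from 4.65, 4.27 and 4.34 to 2.98, 3.09 and 3.19 CPM (−0.52 ± 0.15, adjusted p = 0.0315), with FOXD2 at 1.06 ± 0.18 and 1.10 ± 0.16 CPM. SP2-AS1 fell by 0.72 on the log2 scale (adjusted p = 0.0283) beside an SP2 change of 0.08 ± 0.11. Leaving out any one library ended the call of FOXD2-AS1, and leaving out siNT 1, siNT 2, siLTBP2 1 or siLTBP2 3 ended that of SP2-AS1. The RNAs of the HOX clusters did not pass the test, with HOXA-AS2 at 0.03, HOXB-AS3 at 0.10, HOXD-AS2 at 0.16 and HOXB-AS1 at 0.35. Of the 16 neighbours tested in this list 3 rose and 1 fell (25%, beside 23.4% of all coding genes tested).

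The 14 beside genes of the matrix, of adhesion and of secreted signals had a median of −0.09. GAS6-DT, IGF2-AS and ITGB1-DT rose, DPP4-DT and ADAMTS19-AS1 fell, and 9 did not pass. The share that passed was 35.7%, beside 19.3% of all genes tested. ITGB1-DT rose from 1.36, 1.17 and 1.04 to 2.16, 1.92 and 2.13 CPM (0.80 ± 0.20, adjusted p = 0.0178), beside ITGB1, the shared beta 1 subunit of many integrins, which rose by 0.90 ± 0.09 (adjusted p = 0.000176). ADAMTS19-AS1 fell from 2.03, 1.90 and 1.78 to 1.12, 1.06 and 0.588 CPM (−1.05 ± 0.26, adjusted p = 0.0165) and ADAMTS19, a secreted metalloprotease, by 1.17 (adjusted p = 0.012). IGF2-AS rose from 6.15 ± 0.05 to 8.65 ± 0.87 CPM (adjusted p = 0.0225), and IGF2 had 142 ± 39.2 and 175 ± 45.2 CPM (adjusted p = 0.336). Each of the 3 rises was lost in some fit with 1 library left out, IGF2-AS without any library but siLTBP2 3, GAS6-DT without siNT 2, siNT 3 or siLTBP2 2, and ITGB1-DT without siNT 3 or siLTBP2 1. Of the 12 neighbours tested in this list 4 rose and 3 fell (58.3%, beside 23.4% of all coding genes tested). The list was drawn up with earlier results known, so this share is a description only.

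Among 19 lncRNAs beside zinc finger genes ZNF22-AS1 rose (0.75 ± 0.19, adjusted p = 0.0175), none fell and the median was −0.08. Of the 15 in the list for the ribosome, translation and mitochondria none passed (edgeR, median −0.13). The most abundant of them, PSMA3-AS1 and NOP14-AS1, were at −0.06 ± 0.12 and 0.03 ± 0.12. PSMA3 is a proteasome gene that the symbol pattern took in. Of 11 beside genes of the cell cycle, chromatin and DNA repair, TMPO-AS1 rose (0.43 ± 0.13, adjusted p = 0.0466), KIF9-AS1 and MCM3AP-AS1 fell (MCM3AP-AS1 by 0.43, adjusted p = 0.0389), and the median was −0.10. TMPO-AS1 lost the call without any one library and under upper-quartile factors, total counts and no low-count filter, and MCM3AP-AS1 lost it without any library but siNT 1. ZNF22-AS1 lost it without siNT 3 or siLTBP2 2. The shares called in these lists were 5.26% (zinc finger), 0% (ribosome, translation and mitochondria) and 27.3% (cell cycle, chromatin and DNA repair). Of all genes tested 19.3% were called at this level.

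A 7-base word, GCACCCA, was then looked for in the sense strand of 1 reference transcript per lncRNA from GENCODE 44. It was chosen because earlier results of these counts had linked it to lower genes, so its pattern here is no independent evidence. Of 309 lncRNAs, 36 (11.7%) held it at least once, beside 12.7% of 2316 other lncRNAs tested. The median log2 fold change was −0.10 for carriers and 0.00 for the others, and 6 of 36 carriers (16.7%) were lower at an adjusted p below 0.05 against 17 of 273 others (6.23%). For the other lncRNAs the medians were −0.15 and −0.02, and 7.85% of carriers and 4.45% of the rest were lower. Carriers were longer (median 2533.5 against 1654 bases), and the part of length in this difference was not tested. The 6 lower carriers were DPP4-DT, BAIAP2-DT, KIF9-AS1, FOXD2-AS1, CRIM1-DT and PPM1F-AS1, and PPM1F-AS1 held 13 copies in 37852 bases. GAS5-AS1 was the one carrier that was higher. The sites are printed with 10 bases on each side and the word in capitals, for the 5 lower carriers with 1 or 2 copies and for GAS5-AS1.
DPP4-DT copy 1: aagcgcagcaGCACCCAgcagtcccag
DPP4-DT copy 2: cgggtccactGCACCCAaacccgccgc
BAIAP2-DT: tgtgttccctGCACCCAccgatctcac
KIF9-AS1 copy 1: atcctcccatGCACCCAccgaggaggg
KIF9-AS1 copy 2: gggtatgtttGCACCCAaataaaccac
FOXD2-AS1: actcgcttaaGCACCCAagtactgcgc
CRIM1-DT: ggcttggggcGCACCCAgcgagcagcg
GAS5-AS1: tctcaccctgGCACCCAgtctcaaaaa
The copies of DPP4-DT begin at bases 26 and 914 of a transcript of 1339 bases. STXBP5-AS1, RHOXF1-AS1 and C5orf66-AS1 held no copy of the word in the transcript searched.

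**Figure D5:**
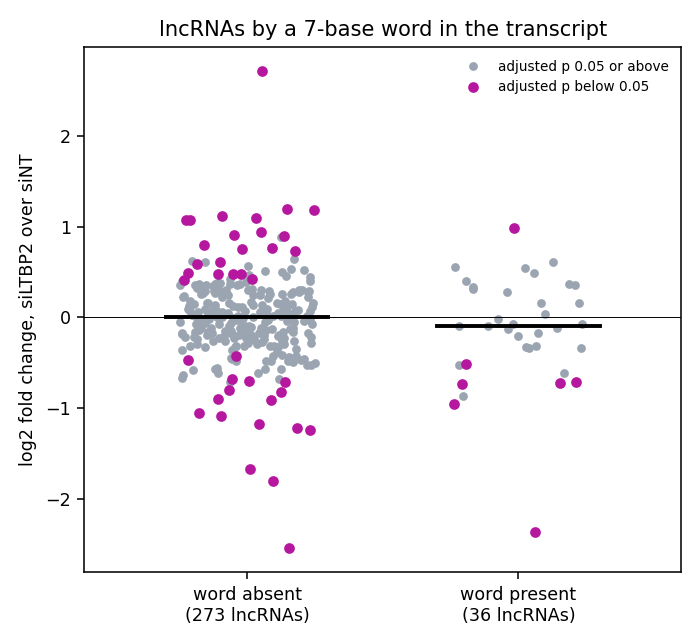
log2 fold change (siLTBP2 over siNT) of the 309 lncRNAs with a reference transcript, without (273) and with (36) the 7-base word, 1 point per lncRNA spread sideways for legibility, the black bar at the median (0.00 and −0.10). The coloured points passed an adjusted p of 0.05, and among carriers 6 of these are below 0 and 1 above.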

How the data were processed

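Stranded total RNA libraries (ribosomal RNA depleted) of 6 CCD18Co samples were analysed, 3 siNT and 3 siLTBP2, grouped by the treatment in the labels. Nothing in the labels says whether the replicates were separate cultures, so p-values measure the spread between these samples, which may be technical. The authors aligned the reads with STAR 2.7.1a (2 passes, Ensembl GRCh38) and counted genes with HTSeq 0.11.2, and the values deposited are raw counts per gene, not normalised. For the Ensembl release and the strand setting of the counting the entry is: not given in the sources used here. By a check on nested genes the counting kept strand. Of 451 genes lying wholly inside exons of an opposite-strand gene with at least 100 counts, 291 (64.5%) had a count, against 23 of 595 (3.87%) inside a same-strand gene. Only 25 of the 451 had at least 100 counts summed over the libraries, and 9 of the 595 did. Whether some reads of abundant coding genes were counted on the wrong strand in pairs with overlapping exons was not tested.

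From the deposited counts, library sizes were taken as column totals (44663424 to 53576899), genes were kept with filterByExpr, scaled with TMM and tested with the quasi-likelihood F test of edgeR 4.0.16 (glmQLFit, glmQLFTest, two-sided, R 4.3.3), with no covariate. The adjusted p is Benjamini-Hochberg over 16920 genes, and the SE is the log2 fold change over the root of F. The study's limits (adjusted p below 0.01, fold above 2) define deregulated. The fit was tested on simulated data. Ratios of lncRNA to neighbour use edgeR log2 CPM with a prior count of 2. Positions and transcripts came from GENCODE 44 and sequence from hg38. The lncRNAs and the gene lists were chosen with earlier results of these data known, and lncRNAs were named when they were deregulated, had a deregulated neighbour, were among the 10 most abundant or the 10 of smallest adjusted p below that, passed within a list, or lay at the limit of 1 CPM. GAS6-AS1, GAS5-AS1, PINK1-AS, CNN3-DT, TMCC1-DT, TMEM30A-DT, CRIM1-DT and the HOX RNAs were named after their values were seen. CPM in the text carries counting error as well as replicate error, and at the lowest level named (11 counts) that error is large. Alternatives were the likelihood ratio test, DESeq2 1.42.0, other scalings and filters, the replicate number as a block, other member limits, and leaving out each library.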

Additional observations from a re-analysis of the deposited data

How the results depend on the processing

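The count of deregulated lncRNAs was 10 to 16 under every full-sample alternative, and all 13 kept the call under the likelihood ratio test, DESeq2, RLE factors, total counts, no low-count filter, 1 CPM in 3 libraries and the replicate block, but LIF-AS2 lost it under upper-quartile factors. With a mean of at least 2 CPM in place of 1, lower deregulated lncRNAs numbered 4, deregulated neighbours 4 (2 higher), neighbours at an adjusted p below 0.05 were 42 (22 higher), and r between partners was 0.47. Deregulated lower neighbours numbered 5 under the likelihood ratio test, the replicate block and no low-count filter, and deregulated higher neighbours 2 under total counts and no low-count filter, where r was 0.32. Whether equal replicate numbers mark paired libraries is not stated in the labels and was not settled here. How far an siNT and an siLTBP2 library deviated together gave correlations of 0.30, 0.08 and 0.43 for equal numbers. For unequal numbers the range was −0.39 to 0.10. The main fit used no block, and 46 lncRNAs and 69 neighbours passed an adjusted p of 0.05. With the replicate block 95 lncRNAs (45 higher, 50 lower) and 134 neighbours (79 higher, 55 lower) passed. Counts at this level therefore depend on the pairing, and a gene that did not pass in the main fit may pass with the block. The value of r was 0.48 for starts within 1 kb, 0.46 without exon overlap and 0.37 without STXBP5-AS1 and DPP4-DT.

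With each library left out in turn, deregulated lncRNAs ranged over 7 to 11 (3 to 5 higher, 4 to 6 lower), and were fewest without siNT 2 (7) and at 8 without siNT 1 or siLTBP2 2. The looser call gave 30 to 40 (13 to 22 higher, 17 to 22 lower), with 30 without siLTBP2 2. Higher lncRNAs at the looser call were also 15 without siNT 3 and 14 without siLTBP2 1. Deregulated neighbours numbered 5 to 8 (2 to 4 higher, 2 to 4 lower) and neighbours at the looser call 49 to 61 (28 to 36 higher, 21 to 28 lower). The median log2 fold change of members of the group ranged from −0.0523 to 0.067, and r from 0.38 to 0.42. No reason for these shifts was tested, beside the smaller number of libraries.

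Small log2 fold changes that passed no test turned sign. Without 1 library, GARS1-DT ranged from −0.25 to 0.07955, HAS2-AS1 from −0.0037 to 0.12, NOP14-AS1 from −0.053 to 0.11, PSMA3-AS1 from −0.15 to 0.0516, TMCO1-AS1 from −0.46 to 0.0402, FOXD2 from −0.0828 to 0.14, GARS1 from −0.0759 to 0.10, LYRM4 from −0.12 to 0.0052, NUTM2A from −0.39 to 0.18, PAX8 from −0.17 to 0.0237 and SP2 from −0.0243 to 0.16. Under total counts NOP14-AS1 was at −0.0021 and GARS1 at −0.017. The cause was not tested. Over all named genes and alternatives, 18 values reversed, 60 lost an adjusted p below 0.05, 25 gained it and 1170 did neither; losses of the deregulated call alone, given beside each gene, are among the latter. PINK1-AS, TMCC1-DT, CNN3-DT, TMEM30A-DT and GAS6-AS1 were not recomputed one by one.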
